A study of Mus musculus with 14 samples.

Results

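The genes described here encode the AMPA receptor and the auxiliary subunits that travel with it, measured in ribosome-bound RNA of POMC neurons of the mouse hypothalamus. They are the 4 pore subunits Gria1, Gria2, Gria3 and Gria4 and the 6 transmembrane AMPA receptor regulatory proteins (TARPs) Cacng2, Cacng3, Cacng4, Cacng5, Cacng7 and Cacng8. The members were chosen by gene name, with earlier results of the comparison of the lines known, and all 10 of 10 were found among the 44672 genes of the deposited table. Each had a mean other than 1, and no filter on low values was applied. Because the choice was made with those results in view, the values below are a description, and no test was run on them.

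Both mouse lines were profiled with translating ribosome affinity purification, in which a ribosomal protein tagged with EGFP is pulled down with its bound RNA. Triple transgenic POMCDre+/- LeprCre+/- ROSA26lSlrSrEGFPL10a+/- mice carry the tag in POMC Lepr+ neurons, and POMCDre+/- Glp1rCre+/- ROSA26lSlrSrEGFPL10a+/- mice carry it in POMC Glp1r+ neurons. The tag needs both recombinases, so it also marks any cell in which both were active earlier in life. There were 4 pools of 6 mice for POMC Lepr+ neurons and 3 pools of 12 mice for POMC Glp1r+ neurons, males and females in equal number, all 12 weeks old, random-fed and untreated. Each pool gave an input library of the tissue and an IP library of the pulldown, 14 libraries in all. The tissue is whole hypothalamus by the methods of the paper and hand-dissected arcuate nucleus by the series record, and which of these the input represents is not settled.

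The value given here for a gene is the authors' mean over all 7 pools of its IP/input ratio, the estimated count in the pulldown divided by that in the input. This mean covers 4 POMC Lepr+ and 3 POMC Glp1r+ pools together. Values of single pools and of the 2 lines were not used here, so no spread between pools is given and differences between genes are not set against it. In a single pool, a ratio above 1 means more estimated counts in the IP than in the input library. The ratios were not corrected for library depth. A mean above 1 can rest on a few pools with high ratios, so it does not show that most pools exceeded 1. Ratios also do not measure abundance, so a gene with a high ratio may still be weakly expressed. The median over the 18379 protein-coding genes with a mean other than 1 was 1.14, with an interquartile range from 0.868 to 1.48.

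AMPA receptors are glutamate-gated cation channels that carry most of the fast excitatory transmission in the brain. Each channel is assembled from 4 pore subunits, and TARPs bind to it and can change its trafficking and gating. Arcuate POMC neurons receive glutamatergic input and are known to respond through these receptors. The type I TARPs (Cacng2, Cacng3, Cacng4 and Cacng8) and the type II TARPs (Cacng5 and Cacng7) differ in how they change trafficking and gating.

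The coding sequence of the pore loop is shown for the 4 subunits because it holds the site at which Gria2 RNA is edited. Capitals mark the codon at the Q/R site, which the enzyme encoded by Adarb1 changes in nearly all Gria2 RNA of the adult brain and which then makes the channel nearly impermeable to Ca2+. The sequences are read 5′ to 3′ from the transcripts of GENCODE M21 on GRCm38.
Gria1: ggggccttcatgCAGcaaggatgtgacatt
Gria2: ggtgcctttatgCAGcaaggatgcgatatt
Gria3: ggtgcttttatgCAGcaaggatgtgatatt
Gria4: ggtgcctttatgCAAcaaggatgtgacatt
The unedited sequences encode the same residues in all 4 genes. Between 26 and 28 of the 30 bases were identical in each pair, and the codon itself was CAG in Gria1, Gria2 and Gria3 and CAA in Gria4. Gene-level ratios do not read the edit, so the edited share of Gria2 was not measured.

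The last 10 codons before the stop are shown for the TARPs because the type I proteins end there in a motif that binds the PDZ domains of synaptic scaffolds such as PSD-95. Capitals mark the last 4 codons.
Cacng2: aacacagccaaccgccggACCACGCCCGTA
Cacng3: aatccggccaacagacgtACCACGCCTGTC
Cacng4: agcatgctgaaccggcggACGACTCCCGTG
Cacng8: aacacgctcaacaggaaaACCACGCCCGTG
Cacng5: gactatgaccagatgtcaTCATCTCCCTGC
Cacng7: gaccatctccacatctccACTTCGCCGTGC
The capitals encode the same residues in the 4 type I genes, which share 8 to 11 of the 12 capital bases in each pair. Cacng5 and Cacng7 share 8 of the 12 capital bases with each other and 5 to 7 with the type I genes, and the residues they encode there are not all those of type I. The coding sequences of Cacng5 and Cacng7 are equally long, at 825 nt, and shorter than those of the type I genes, which run from 945 nt in Cacng3 to 1269 nt in Cacng8, the last in a transcript annotated with a start other than ATG.

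The 4 pore subunits lay close to or below input. Gria2 (ENSMUSG00000033981, chromosome 3, 80681450 to 80802835), whose edited product limits Ca2+ entry, had a mean ratio of IP to input of 1.05 over the 7 pools. Gria4 (ENSMUSG00000025892, chromosome 9, 4417896 to 4796234), a subunit of fast-gating receptors, had a mean ratio of 0.956. For Gria1 (ENSMUSG00000020524, chromosome 11, 57011387 to 57330244), whose long tail is a target of kinases in synaptic plasticity, it was 0.928. These 3 means stood within a narrow range around 1, at percentiles 42.2, 34.1 and 30.6 of protein-coding genes. Gria3 (ENSMUSG00000001986, chromosome X, 41400854 to 41678601) was the lowest of the members at 0.685, the 12.4th percentile, and the mean of Gria2 was 1.54 times as high. The median of the 4 subunits was 0.942, below the median protein-coding gene, and none of the 4 exceeded that gene.

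The type I TARPs had means above 1 in 4 of 4 genes, beside 62.4% of protein-coding genes above 1, and 2 of the 4 (Cacng4 and Cacng8) exceeded the median pan-neuronal gene, at 1.36. Cacng8 (ENSMUSG00000053395, chromosome 7, 3390683 to 3415648), best known from hippocampal receptors, had the highest of them, a mean ratio of 1.83 at the 88.0th percentile of protein-coding genes. Cacng4 (ENSMUSG00000020723, chromosome 11, 107732357 to 107794557) had a mean of 1.45 and Cacng3 (ENSMUSG00000066189, chromosome 7, 122670492 to 122769393), a TARP of the forebrain, a mean of 1.23. Cacng2 (ENSMUSG00000019146, chromosome 15, 77991748 to 78120028) encodes stargazin, the first TARP described and the gene mutated in the stargazer mouse. Its mean ratio was 1.05, at the 42.2nd percentile. Cacng2 thus stood below the median protein-coding gene and the other 3 above it. The mean of Cacng8 was 1.74 times that of Cacng2.

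The type II TARPs stood at opposite ends of the 6 TARPs. Cacng5 (ENSMUSG00000040373, chromosome 11, 107874605 to 107915055) had a mean ratio of 4.50, the highest of the 10 members, at the 98.5th percentile, and 268 of the 18379 protein-coding genes had a higher mean. Cacng7 (ENSMUSG00000069806, chromosome 7, 3332955 to 3368221) had a mean of 0.952, the lowest of the 6 TARPs. The mean of Cacng5 was 4.73 times that of Cacng7, the other member of its type, 2.46 times that of Cacng8, the next gene in the order, and 6.57 times that of Gria3. The 7 ratios of Cacng5 add up to 31.5, and how this sum was divided between the pools and between the lines was not analysed here. Ordered by their means, the members ran Cacng5, Cacng8, Cacng4, Cacng3, Cacng2, Gria2, Gria4, Cacng7, Gria1 and Gria3. Gria2 and Cacng2 had means of 1.053 and 1.054, and Gria4 and Cacng7 had means of 0.956 and 0.952, and no spread was used to order the genes within either pair.

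**Figure D1:**
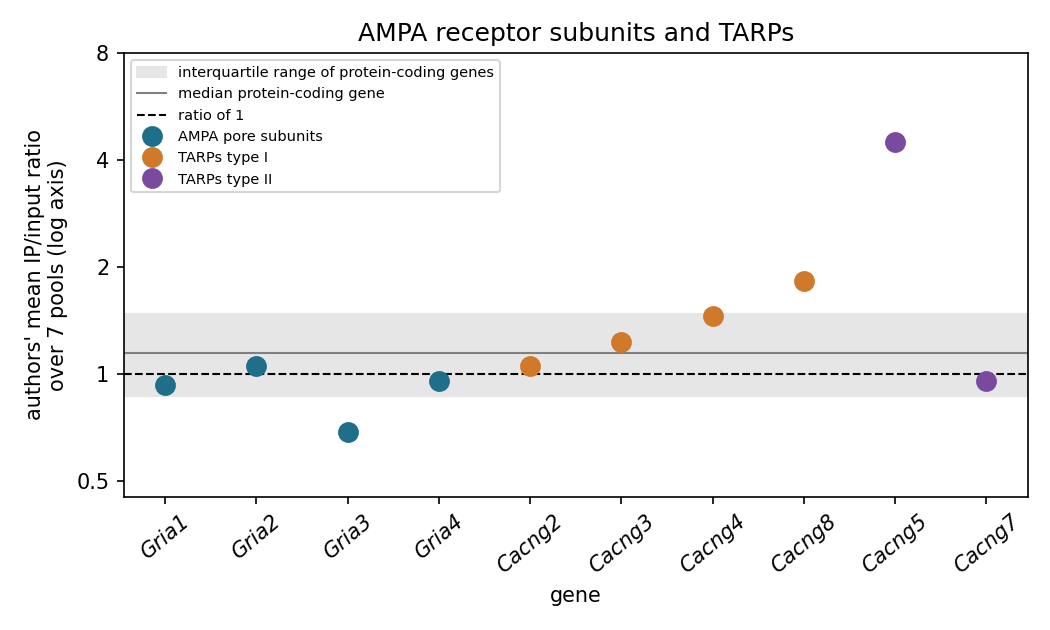
Authors' mean IP/input ratio over the 7 pools (vertical log axis) for the 4 AMPA pore subunits, the 4 type I TARPs and the 2 type II TARPs; each point is 1 gene, and no error is drawn because values of single pools were not used. Cacng5 stands at 4.50, Gria3 is lowest at 0.685, and the grey band is the interquartile range of protein-coding genes, 0.868 to 1.48.

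Of the 10 members, 6 had a mean above 1 and 4 a mean below 1. The members' count is near the background of 62.4% among the 18379 protein-coding genes. Above the median protein-coding gene stood 4 members, all of them TARPs (Cacng3, Cacng4, Cacng5 and Cacng8). The median was 1.34 over the 6 TARPs and 1.05 over the 10 members.

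**Figure D2:**
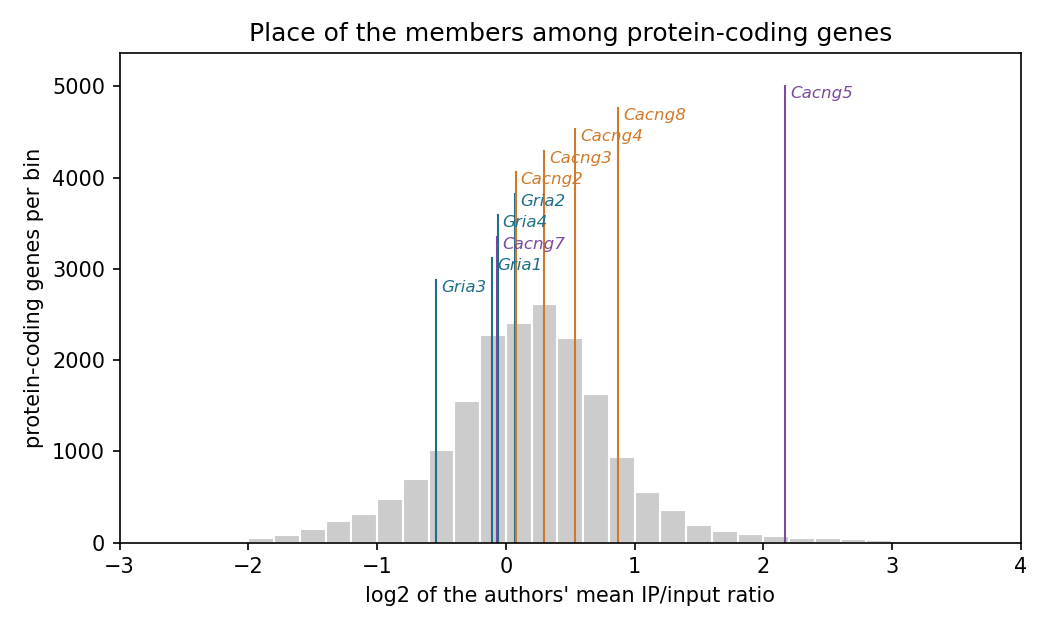
Histogram of the log2 of the authors' mean IP/input ratio for the 18379 protein-coding genes with a mean other than 1 (grey bars, genes per bin of 0.2), with a line at the value of each member; genes below -3 or above 4 are not drawn. Gria1, Gria2, Gria4, Cacng2 and Cacng7 fall between -0.11 and 0.08, Gria3 is at -0.54 and Cacng5 at 2.17 in the right tail.

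Several TARP genes are neighbours in the genome. On chromosome 7, Cacng7 and Cacng8 are followed on the same strand by Cacng6 (3424195 to 3435667), and the mean ratios along this cluster were 0.952, 1.83 and 4.77. On chromosome 11, Cacng1 (107703218 to 107716522), Cacng4 and Cacng5 lie side by side on the minus strand, with means of 1.71, 1.45 and 4.50. Cacng1, a subunit of the skeletal muscle Ca2+ channel, and Cacng6 are not TARPs and are given only as neighbours. The 7 ratios of Cacng1 add up to 12.0 exactly, and such whole sums occurred in 1.85% of the protein-coding genes and in 0 of the 10 members. Ratios between whole counts of a few reads readily give whole sums, and the read numbers are not known for any of these genes. With so low a share in the background, 0 of 10 members does not tell whether their ratios rest on few reads.

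Little of the members' exonic sequence is shared with other annotated genes. In Cacng2 5.86% of the exonic bases overlap the antisense gene A730060N03Rik, and the library kit is not described as marking strand, so reads there cannot be told apart. In Cacng8 3.88% of exonic bases overlap a small annotated gene, in Gria1, Cacng3, Cacng4, Cacng5 and Cacng7 none do, and in the other 3 genes less than 1% do.

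The members also differ in transcript length, and the ratio moved with length across the table. The longest annotated transcripts were 5192 to 10371 nt in the 4 Gria genes and 1897 to 5510 nt in the TARPs. When protein-coding genes were divided by this length into 4 classes of nearly equal size, the median ratio was 1.33, 1.20, 1.14 and 1.00 from the shortest to the longest class. Spearman's rho between length and ratio was -0.24 across 18304 genes, which share the same libraries and are not independent replicates. All 4 Gria genes and Cacng2 are in the longest class, and against its median the means were 1.05 in both Gria2 and Cacng2, 0.956 in Gria4, 0.928 in Gria1 and 0.685 in Gria3. Against the medians of their own classes, Cacng5 stood 3.94 times, Cacng8 1.52 times and Cacng4 1.27 times as high, with Cacng3 at 1.02 and Cacng7 at 0.790. The part of length in the order of the members was not tested.

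**Figure D3:**
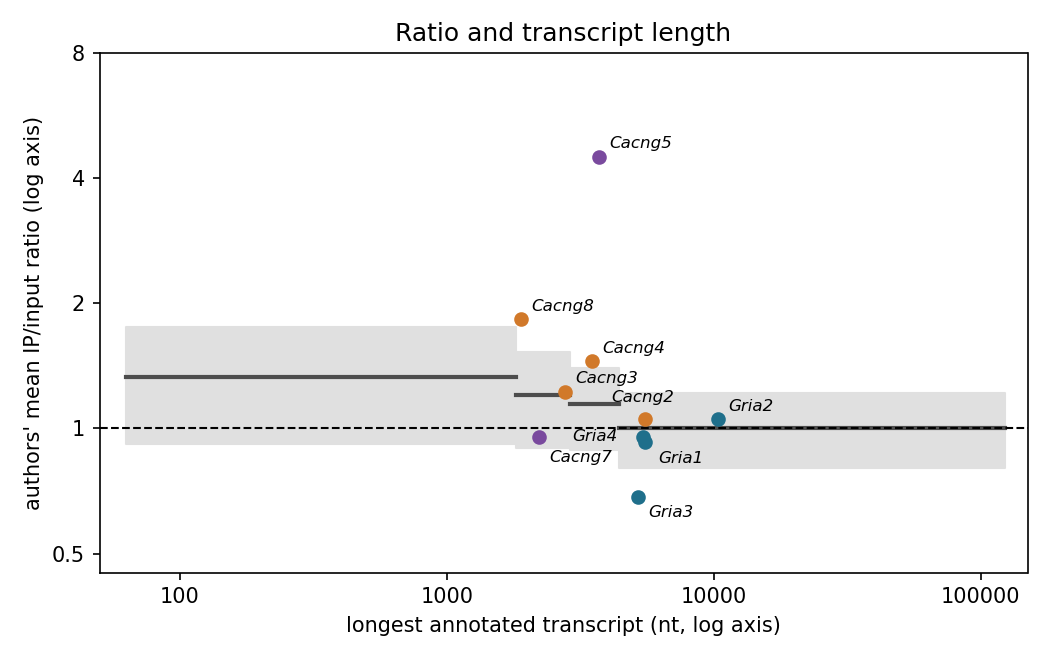
Longest annotated transcript (nt, horizontal log axis) and authors' mean IP/input ratio (vertical log axis) of the 10 members (points), with the median (dark line) and interquartile range (grey) of protein-coding genes in 4 length classes. The class medians go from 1.33 to 1.00, and Cacng5, Cacng8, Cacng4 and Gria3 lie outside the range of their class.

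The genes that build, carry and anchor the AMPA receptor had means on both sides of 1, and their lists were not tested against the members. The share of all protein-coding genes above 1, to be read beside their counts, was 62.4%. Of 15 other auxiliary proteins, 11 had a mean above 1 and 4 below it, with a median of 1.20, and 9 exceeded the median protein-coding gene. Shisa8, a member of the Shisa family of AMPA receptor modulators, had a mean of 4.95, close to that of Cacng5, and Syndig1, a synaptic transmembrane protein that binds the receptor, had 1.82. The lowest were Nrn1, a neuritin found in native receptor complexes, at 0.698 and Gsg1l, a claudin-like auxiliary subunit, at 0.853. Of 6 genes of receptor assembly in the endoplasmic reticulum, 3 were above and 3 below 1, with Porcn (1.73) and Cpt1c (1.40) the highest and Abhd6 (0.863) and Sacm1l (0.975) the lowest. Frrs1l, which encodes a factor that native receptors need for assembly in the endoplasmic reticulum, had a mean of 0.996.

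Among 15 scaffolding and trafficking genes, 12 had a mean above 1 and 3 below it, beside 62.4% of protein-coding genes above 1, and 9 of the 15 exceeded the median protein-coding gene. The 2 highest encode neuronal pentraxins or their receptor, which cluster AMPA receptors from outside the cell: Nptx2 at 4.39 and Nptxr at 2.33. The lowest were Arc, an activity-regulated gene that promotes receptor endocytosis, at 0.585 and Dlg2, which encodes the scaffold PSD-93, at 0.732. The median of these 15 genes was 1.18. Of the RNA editing enzymes, Adarb1 had a mean of 1.06, Adar 1.38 and Adarb2, which has no known editing activity, 0.612.

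The other ionotropic glutamate receptor subunits also had means on both sides of 1. For 7 NMDA receptor genes the median was 0.902, with Grin1, the obligatory subunit, at 1.72 and Grin2d at 1.22 as the highest, and Grin2c at 0.686 and Grin3a at 0.763 as the lowest. For 5 kainate receptor genes it was 1.00, from Grik1 at 0.750 and Grik2 at 0.890 through Grik3 at 1.00 and Grik4 at 1.26 to Grik5 at 1.94. The difference between these receptor families was not tested.

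**Figure D4:**
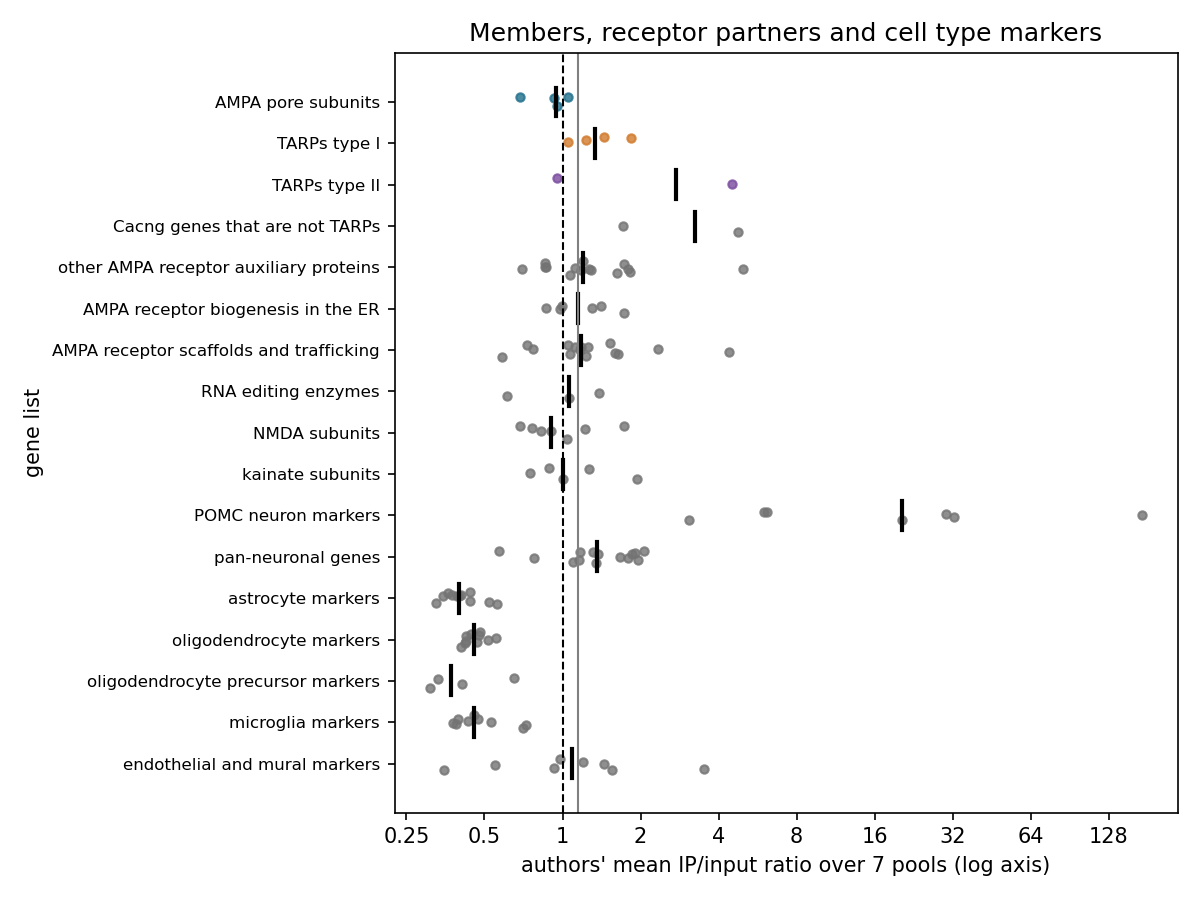
Authors' mean IP/input ratio over the 7 pools (horizontal log axis) for each gene (points) of the 17 lists, with the median of each list (black bar), a dashed line at 1 and a grey line at the median protein-coding gene, 1.14. The pore subunits have a median of 0.942 and the POMC neuron markers one of 20.4, while astrocyte, oligodendrocyte and microglia markers all lie below 1.

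The 7 markers of POMC neurons all had a mean above 1, with a median of 20.4. Among them, Pomc, Lepr and Glp1r drive the recombinases that select the tagged cells, so their enrichment is built into the design. Pomc had a mean IP/input ratio of 171.7, Lepr 6.13 and Glp1r 5.98. Lepr and Glp1r each define only 1 of the 2 lines, so a mean over both lines describes neither line alone. The lowest of the 7, Isl1, a transcription factor of POMC neurons, stood at 3.08, below Cacng5 and above the other 9 members. The 14 pan-neuronal genes had a median of 1.36, with 12 above and 2 below 1, beside 62.4% of protein-coding genes above 1. Glial markers were below input in every gene listed: 0 of 11 astrocyte markers, 0 of 10 oligodendrocyte markers, 0 of 4 markers of oligodendrocyte precursors and 0 of 9 microglia markers had a mean above 1. The highest of each list were Gfap at 0.558, Mobp at 0.556, Cspg4 at 0.648 and C1qc at 0.721, and the medians were 0.400, 0.457, 0.370 and 0.456. Gria3 at 0.685 was above all but C1qc and Aif1 (0.704) of the 34 glial genes listed. Of 8 endothelial and mural markers 4 were above 1, with Esam the highest at 3.51 and a median of 1.09. In an input of mixed tissue, fewer cells that express a gene and less RNA per cell cannot be told apart, so a ratio near 1 does not say how much of a subunit a POMC neuron makes.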

How the data were processed

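Ribosome-bound and input RNA of 7 pools was sequenced. According to the paper, the authors aligned reads with STAR to GRCm38.p6, estimated gene counts with Salmon (0.14.1 in the submitters' processing notes), formed the IP/input ratio per pool and tested the lines with DESeq2 (1.26.0). The deposited table holds 1 mean per gene, a score: the authors' average of these ratios, stored in thousandths. Multiplied by 7 it was whole in 100% of genes (tolerance 1e-06), so pools were not rescaled, and 13059 genes stand at exactly 1000, read as an equal pseudocount over empty libraries. Means were divided by 1000 here. The other 5 numeric columns hold the authors' comparison of the lines (log2 fold change, its standard error, the Wald statistic and 2 p-values). They were left out by choice, as the authors' own findings, and no test between samples was made. Depth is unknown.

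The members and the 17 gene lists (126 genes) were chosen with earlier results of these data known. Percentiles are shares of protein-coding genes with a lower mean. Named were the 10 members, the highest 2 and lowest 2 genes of each partner or receptor list (all genes of lists up to 5), Pomc, Lepr, Glp1r and the highest marker of each glial or vascular list. Frrs1l, Aif1 and Isl1 were named after their values were seen. GENCODE M21 on GRCm38 held 44116 of the gene identifiers. Coding windows come from the longest principal coding transcript. Alternatives were other reference levels, background genes and summaries. The scripts ran in Python 3.11.15 with numpy 2.4.6, pandas 2.3.3, scipy 1.17.1 and matplotlib 3.10.9 and were tested on simulated data.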

Additional observations from a re-analysis of the deposited data

How the results depend on the processing

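The count of 6 members above input was 4 when ratios were centred on the median of all genes with a mean other than 1 or on that of protein-coding genes, 3 when centred on the median pan-neuronal gene, and 6 when centred within length classes, a setting chosen after seeing the data. With the median protein-coding gene as the reference, the log2 ratios of Gria2 and Cacng2 were both -0.12 in place of 0.07 and 0.08, and centred on the median pan-neuronal gene they were both -0.37, with Cacng3 at -0.15 in place of 0.29. The other members kept their side of the reference under these settings. Among all protein-coding genes, Gria2 and Cacng2 stood at percentiles 50.1 and 50.1, just above the middle and not below it, and percentiles of members moved by at most 7.91 points. The genes added in this background all have a mean of exactly 1, read above as empty libraries, and so lie just below Gria2 and Cacng2. As a geometric mean, the level of the pore subunits was 0.895, that of the 6 TARPs 1.57, and that of the RNA editing enzymes 0.964, below 1 and not above it. No listed gene had a mean of exactly 1, so leaving out such genes could change no list. No paired analysis was possible because the deposited values include none of single pools, and leaving out a pool was not run for the same reason.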
